A study of Saccharomyces cerevisiae with 6 samples.

Results

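The genes described here encode the enzymes of pyrimidine nucleotide synthesis in budding yeast, chosen by their systematic names as *URA1*, *URA2*, *URA3*, *URA4*, *URA5*, *URA6*, *URA7*, *URA8*, *URA10* and *FUR1*. All 10 are among the 5913 genes listed in the RNA-seq table, and all 10 passed the filter on low values. The study asked what the RRM-C of the Not4 ubiquitin ligase, an RNA recognition motif followed by a C3H1 domain, contributes to transcript levels. Both groups were *not4Δ* cells of the BY4741 background, which is *MATa* and also lacks functional *HIS3*, *LEU2*, *MET15* (*MET17*) and *URA3*. Wild-type Not4 (Not4WT, 3 cultures) or Not4 with alanine at 3 conserved residues of the RRM-C (Not4RRM, 3 cultures) was expressed with a FLAG tag from the *ADH1* promoter of a centromeric plasmid that carries *URA3*, and the cells were grown without uracil to keep the plasmid.

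Pyrimidine nucleotides are made from glutamine, bicarbonate and aspartate by a chain of enzymes that ends in UMP, the precursor of UTP, CTP and the pyrimidine deoxynucleotides. Uracil taken up from the medium can also be turned directly into UMP by Fur1, so yeast without Ura3 grows only when uracil is supplied. Several *URA* genes are activated by Ppr1, a zinc cluster protein that responds to pyrimidine precursors, and the pathway is also restrained by UTP at the Ura2 enzyme. In these cells the *URA3* copy that completes the pathway and the *NOT4* copy under study are on the same plasmid.

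The recognition sequence described for Ppr1 is a palindrome of the letters TTCGGNNNNNNCCGAA, where N is any base, and its core is CGGNNNNNNCCG. Each pattern reads the same on both strands, and the longer contains the shorter. In the window from 250 bases before to 50 bases after the first coding base, the longer pattern was found once among 6007 genes of the RefSeq R64 assembly (0.0166%), and that gene was *URA1*. The core was found in 75 of the 6007 windows (1.25%), and these include *URA1*, *URA3* and *URA4*, or 3 of the 10 genes described. The sites are shown because they sort the genes into those with and those without a match, and are referred to again beside each gene. They are given 5′ to 3′ on the strand of the gene, with the matched letters in capitals.
*URA1* site, longer pattern, chrXI:25025-25054: cacgatcTTCGGCATTCGCCGAAaattttt
*URA1* site, core only, chrXI:24994-25023: tttcttcacCGGGCTTTGCCGaaggttatt
*URA3* site, core only, chrV:116006-116035: tttttgattCGGTAATCTCCGagcagaagg
*URA4* site, core only, chrXII:963646-963675: ttcatcattCGGAGAATTCCGatgaatcgg
All 3 genes are on the forward strand of R64, and the 4 sites end 167, 200, 140 and 118 bases before the first coding base, in the order shown. The *URA3* sequence is that of the S288C reference chromosome, and the plasmid copy was not analysed here. A match is a description of the letters only, and the other 7 windows hold no such letters.

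The deposited values are read counts that the authors scaled to a common total and rounded (called scaled counts here). Totals were 14881818 to 14881884 per sample. The depth before scaling is unknown, and the spread between cultures is the error given, as SD over 3 samples. *NOT4*, deleted from the chromosome and carried by the plasmid, had scaled counts of 12357, 13057 and 8966 in Not4WT and 33371, 40410 and 40314 in Not4RRM. *LEU2* and *MET17*, which the strain lacks, had values between 11 and 26 in all 6 samples. *HIS3*, of which the strain carries a partial deletion, had 805 to 2521. Not4RRM replicate 1 stood apart from replicates 2 and 3 (Pearson r of log2 values across genes 0.952 and 0.947, against 0.993 between replicates 2 and 3). The samples did not sort by group on this measure: Not4WT replicate 3 was closer to Not4RRM replicates 2 and 3 (r 0.983 and 0.979) than to Not4WT replicate 2 (r 0.968), and Not4RRM replicate 1 was closest to Not4WT replicate 1 (r 0.963). Fold changes of the 10 genes are therefore also given without Not4RRM replicate 1. Log2 fold changes are Not4RRM minus Not4WT on the log2(value + 1) scale after a trimmed-mean (TMM) scaling. They were tested with limma over 5805 genes that passed the filter, with Benjamini-Hochberg adjustment over all of them, and the threshold was an adjusted p under 0.05 with at least 1.5-fold.

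None of the 10 genes passed that threshold, and 0 of the 5805 genes did (0%), while 926 genes had an unadjusted p under 0.05 in limma. At that unadjusted level 2 of the 10 genes were higher in Not4RRM (*URA3* and *FUR1*) and 1 was lower (*URA8*), beside 9.84% of all tested genes higher and 6.12% lower. The 3 samples of each group did not overlap for 5 of the 10, with *URA3* and *FUR1* higher and *URA2*, *URA1* and *URA8* lower. Over all tested genes, 12.3% were higher and 12.2% lower without overlap. The median log2 fold change of the 10 genes was 0.07, ranging from -0.63 to 2.42, and that of all tested genes was 0.05. Without Not4RRM replicate 1 the median of the 10 was -0.14 (all tested genes 0.02). With the trend with coding length removed (described below) it was -0.10 (all tested genes 0.05). With equal totals in place of TMM it was -0.054 (all tested genes -0.075). Of the 10 genes, 7 had a positive and 3 a negative value, beside 54.8% of all tested genes positive. The tally was 4 positive and 6 negative with equal totals or with the length trend removed, and 5 and 5 without Not4WT replicate 2 or 3. It was 2 and 8 without Not4RRM replicate 1, when only *URA3* and *FUR1* were positive. Of all tested genes, 55.3% were positive with the length trend removed and 52.2% without Not4RRM replicate 1. *URA3* stood far from the rest throughout.

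**Figure D1:**
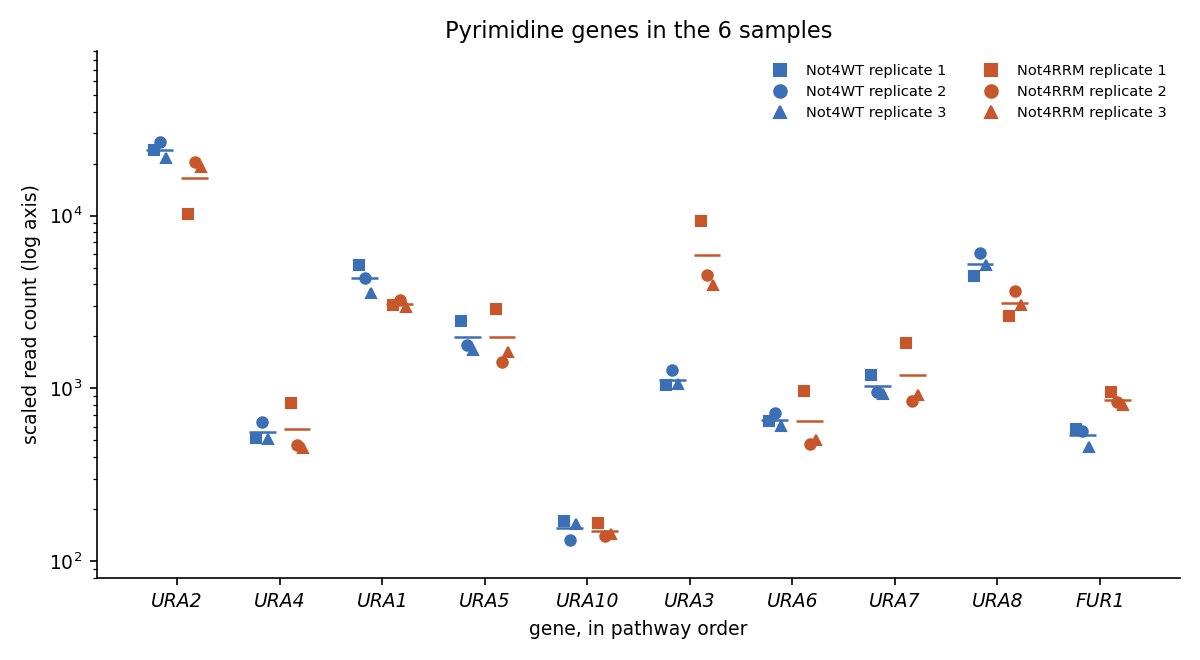
Scaled read count (vertical log axis) of each of the 10 genes in the 6 samples. Blue points are Not4WT and orange points Not4RRM, the shape gives the replicate and the bars are group means (n = 3). *URA3* is higher in all 3 Not4RRM samples (3990 to 9251) than in Not4WT (1047 to 1270), and the square of Not4RRM replicate 1 lies apart from the other orange points for most genes.

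*URA3* (YEL021W) encodes orotidine-5′-phosphate decarboxylase, the last enzyme on the way to UMP, and in R64 it lies on chromosome V from 116167 to 116970 as 1 coding exon. Its scaled counts were 1047, 1270 and 1056 in Not4WT and 9251, 4506 and 3990 in Not4RRM. Every Not4RRM sample was above every Not4WT sample, and replicate 1 was the highest. The means were 1124 ± 126 (SD, n = 3) and 5916 ± 2900 (SD, n = 3), so that Not4RRM had 5.26 times as much. All of these values were far above those of *LEU2* and *MET17*, the genes absent from the strain. The log2 fold change of *URA3* was 2.42 (standard error 0.31, 95% interval 1.70 to 3.13, adjusted p = 0.072 from limma), which put it second from the top of the 5805 tested genes. The groups differed at p = 0.1 in a two-sided exact permutation test, the smallest p that 3 samples against 3 allow. Without Not4RRM replicate 1 the log2 fold change was smaller, 2.05, and passed the threshold (adjusted p = 0.00872 from limma). In that comparison 3.92% of 5793 tested genes passed as higher and 2.26% as lower, and the spread within Not4RRM came only from replicates 2 and 3.

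Because *URA3* and *NOT4* are carried by the same plasmid, their ratio was taken within each sample. Per kb of coding length, *URA3* was at 0.186, 0.213 and 0.258 of the level of *NOT4* in the Not4WT samples. In Not4RRM the ratio was 0.608 in replicate 1, and 0.245 and 0.217 in replicates 2 and 3. Replicate 1 was thus above all other samples, while replicates 2 and 3 lay within the range of Not4WT. On the log2 scale the ratio was 0.55 higher in Not4RRM (two-sided exact permutation test, p = 0.4, n = 3 per group), and 0.08 higher without replicate 1. *NOT4* itself was 3.32-fold higher in Not4RRM, and in replicates 2 and 3 *URA3* was higher by nearly the same proportion. In bulk RNA, a larger share of cells with the plasmid, more copies per cell and more RNA per copy cannot be told apart.

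**Figure D2:**
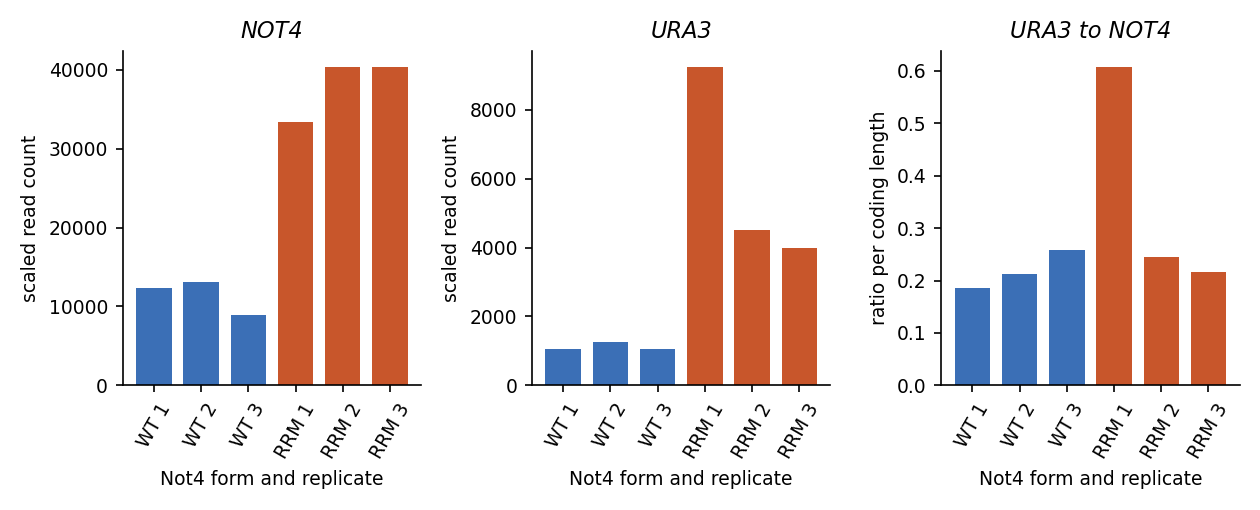
Scaled read counts of *NOT4* and *URA3* and the ratio of *URA3* to *NOT4* per coding length, as bars from 0 for each of the 3 Not4WT (blue) and 3 Not4RRM (orange) samples. The ratio is 0.608 in Not4RRM replicate 1 and between 0.186 and 0.258 in the other 5 samples.

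The early steps of UMP synthesis are carried out by Ura2, Ura4 and Ura1. *URA2* (YJL130C, chromosome X from 165723 to 172367, 1 coding exon) encodes the carbamoyl phosphate synthetase and aspartate transcarbamylase that starts the pathway. Its scaled counts were 23887, 26754 and 21555 in Not4WT and 10201, 20350 and 18996 in Not4RRM. The groups did not overlap, but Not4RRM replicates 2 and 3 lay close below Not4WT, and replicate 1 was by far the lowest sample. The means were 24065 ± 2604 (SD, n = 3) and 16516 ± 5510 (SD, n = 3), and the log2 fold change was -0.48 (standard error 0.30, 95% interval -1.19 to 0.23, adjusted p = 0.452 from limma). Without replicate 1 it was -0.15.

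*URA1* (YKL216W, chromosome XI from 25215 to 26159, 1 coding exon) encodes dihydroorotate dehydrogenase, which oxidises dihydroorotate to orotate. It had scaled counts of 5190, 4378 and 3566 in Not4WT and 3055, 3265 and 2949 in Not4RRM. Here the 3 Not4RRM samples were close to each other, and all lay below the lowest Not4WT sample. The means were 4378 ± 812 (SD, n = 3) and 3090 ± 161 (SD, n = 3), and the log2 fold change was -0.36 (standard error 0.19, 95% interval -0.81 to 0.08, adjusted p = 0.379 from limma). The value changed little without replicate 1, at -0.35. *URA1* carries both sites shown above, including the only match to the longer pattern.

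*URA4* (YLR420W, chromosome XII from 963785 to 964879, 1 coding exon) encodes dihydroorotase, which closes the pyrimidine ring. Its scaled counts were 518, 642 and 510 in Not4WT and 828, 469 and 452 in Not4RRM. Replicate 1 was above all Not4WT samples and replicates 2 and 3 were below them, so the log2 fold change of 0.14 (95% interval -0.43 to 0.71, adjusted p = 0.795 from limma) turned to -0.13 without replicate 1. In these cells *URA3* is carried by the plasmid, and the promoter of that copy was not analysed here. Of the 3 genes with a core site in R64, *URA3* was higher, *URA1* lower and *URA4* without a stable direction. None of these 3 passed the threshold with all 6 samples as fitted above (adjusted p = 0.072, 0.379 and 0.795 from limma, in that order). *PPR1* (YLR014C), which encodes their activator, had scaled counts of 449, 413 and 388 in Not4WT and 293, 364 and 367 in Not4RRM, with -0.17 as its log2 fold change (limma, adjusted p = 0.624). After TMM scaling its groups overlapped.

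Orotate is joined to phosphoribosyl pyrophosphate (PRPP) by a pair of isozymes. *URA5* (YML106W, chromosome XIII from 56773 to 57453) encodes the major and *URA10* (YMR271C, chromosome XIII from 806865 to 807548, reverse strand) the minor orotate phosphoribosyltransferase, each with 1 coding exon. Their proteins of 226 and 227 residues are identical at 165 of 224 aligned positions (73.7%), and the coding sequences at 74.1% of aligned bases. The longest run of bases that the coding sequences share has 11 bases, shown as a measure of how alike the transcripts are: CTAAGATTTGG. How reads that match both genes were counted is not given in the sources used here. *URA5* had scaled counts of 2454, 1790 and 1675 in Not4WT and 2893, 1416 and 1613 in Not4RRM. *URA10* had 171, 133 and 163 in Not4WT and 166, 139 and 143 in Not4RRM. For both genes the groups overlapped, and the log2 fold changes were 0.07 for *URA5* (95% interval -0.61 to 0.76) and 0.07 for *URA10* (95% interval -0.37 to 0.50). Without Not4RRM replicate 1 *URA5* was at -0.23. Per coding length *URA5* was 14.4, 13.5 and 10.3 times as high as *URA10* in Not4WT and 17.5, 10.2 and 11.3 times in Not4RRM, with overlap. The log2 ratio of the isozymes differed by 0.005 between the groups, with a per-sample SD of 0.26 in Not4WT and 0.41 in Not4RRM (two-sided exact permutation test, p = 1, n = 3 per group, adjusted over 2 isozyme pairs p = 1). Without Not4RRM replicate 1 that difference was -0.23, with p = 0.3 in the same exact test.

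*URA6* (YKL024C, chromosome XI from 392526 to 393140, reverse strand, 1 coding exon) encodes uridylate kinase, which turns UMP into UDP. Its scaled counts were 648, 717 and 605 in Not4WT and 969, 475 and 504 in Not4RRM. As for *URA4*, replicate 1 was above and replicates 2 and 3 were below all Not4WT samples. The log2 fold change was 0.03 (95% interval -0.60 to 0.66, adjusted p = 0.961 from limma) and -0.29 without replicate 1. The next coding gene on the same strand, *MIN9*, is 5 bases away in R64, while no coding gene of the annotation overlaps any of the 10 genes. *URA8*, described next, has *SOD1* on the opposite strand 59 bases away in R64. Whether the counting used strand is not given in the sources used here, and any effect on these levels was not tested.

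CTP is made from UTP by a second pair of isozymes, the CTP synthases Ura7 and Ura8, of which Ura7 is described as the major form. *URA8* (YJR103W, chromosome X from 620754 to 622490, 1 coding exon) had scaled counts of 4494, 6060 and 5180 in Not4WT and 2619, 3660 and 3056 in Not4RRM. All Not4RRM samples were below all Not4WT samples, replicate 1 lowest. The means were 5245 ± 785 (SD, n = 3) and 3112 ± 523 (SD, n = 3), 1.69 times as high in Not4WT. The log2 fold change was -0.63 (standard error 0.20, 95% interval -1.11 to -0.16, unadjusted p = 0.0156 and adjusted p = 0.229 from limma). This was the lowest of the 10 genes, and 2.65% of the tested genes were lower still. Without replicate 1 it was -0.50, so the lower level of *URA8* was found in replicates 2 and 3 as well. Without Not4WT replicate 2, the highest sample, it was -0.55 with an unadjusted p of 0.0585 from limma.

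*URA7* (YBL039C, chromosome II from 143989 to 145728, reverse strand, 1 coding exon) had scaled counts of 1194, 954 and 927 in Not4WT and 1831, 850 and 920 in Not4RRM. Only replicate 1 lay outside the spread of Not4WT by more than a small margin. Its log2 fold change of 0.27 (95% interval -0.42 to 0.96, adjusted p = 0.658 from limma) was -0.07 without that sample. In every sample *URA8* was higher than *URA7* per coding length, at 3.77, 6.36 and 5.60 times in Not4WT and 1.43, 4.31 and 3.33 times in Not4RRM. The log2 ratio of *URA7* to *URA8* was 0.90 higher in Not4RRM (two-sided exact permutation test, p = 0.2, n = 3 per group, adjusted over 2 isozyme pairs p = 0.4), and 0.43 higher without replicate 1. The ranges of the ratio overlapped between the groups. The proteins of 579 and 578 residues are identical at 78.3% of aligned positions, and the longest run shared by the coding sequences has 17 bases: AAGATTGCCATGTTTTG. It lies at chrII:145034-145050 in *URA7* and chrX:621432-621448 in *URA8*.

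*FUR1* (YHR128W, chromosome VIII from 362115 to 362765, 1 coding exon) encodes uracil phosphoribosyltransferase, the salvage enzyme that makes UMP from uracil. Its scaled counts were 583, 567 and 459 in Not4WT and 947, 829 and 801 in Not4RRM. Each Not4RRM sample was above each Not4WT sample, and unlike for most of the other genes replicate 1 was near replicates 2 and 3. The means were 536 ± 67.4 (SD, n = 3) and 859 ± 77.5 (SD, n = 3). On the log2 scale *FUR1* was 0.81 higher (standard error 0.16, 95% interval 0.43 to 1.18, unadjusted p = 0.00112 and adjusted p = 0.112 from limma). Without replicate 1 it was 0.74 higher and passed the threshold (adjusted p = 0.0336 from limma), the only gene of the 10 besides *URA3* to do so. In that comparison 3.92% of all tested genes passed as higher and 2.26% as lower.

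*FUR1* and the median of the other genes of its chromosome were both higher in Not4RRM. They lay close together in replicates 2 and 3 and apart in replicate 1. The median log2 fold change of the other 274 tested genes of chromosome VIII was 0.65 (quartiles 0.40 and 0.88), while each of the other 15 nuclear chromosomes had a median between -0.11 and 0.08. Relative to the Not4WT mean, the median of these 274 genes was 0.37, 0.80 and 0.79 in Not4RRM replicates 1, 2 and 3, and *FUR1* was at 0.93, 0.74 and 0.75. In replicates 2 and 3 *FUR1* was thus slightly below the median gene of its chromosome, and in replicate 1 it was 0.56 above it. Of the 274 genes, 193 had a lower fold change than *FUR1*. Among the 275 tested genes of chromosome VIII, *FUR1* included, 155 were higher at an unadjusted p under 0.05 in limma. Over all tested genes, 9.84% were higher at that level. The difference between *FUR1* and its chromosome was 0.16 higher in Not4RRM than in Not4WT (two-sided exact permutation test, p = 0.7, n = 3 per group), and -0.043 without replicate 1. With the trend with coding length removed (described below), that value was -0.0081 with all 6 samples. The nearest tested genes on either side had log2 fold changes of 0.66 (YHR127W) and 0.25 (*ARP1*), and the next ones -0.24 (*ANS1*) and 0.57 (YHR131C). With the genes of chromosome VIII centred on the other genes in each sample, the log2 fold change of *FUR1* was 0.20 (unadjusted p = 0.417 and adjusted p = 0.694 from limma).

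**Figure D3:**
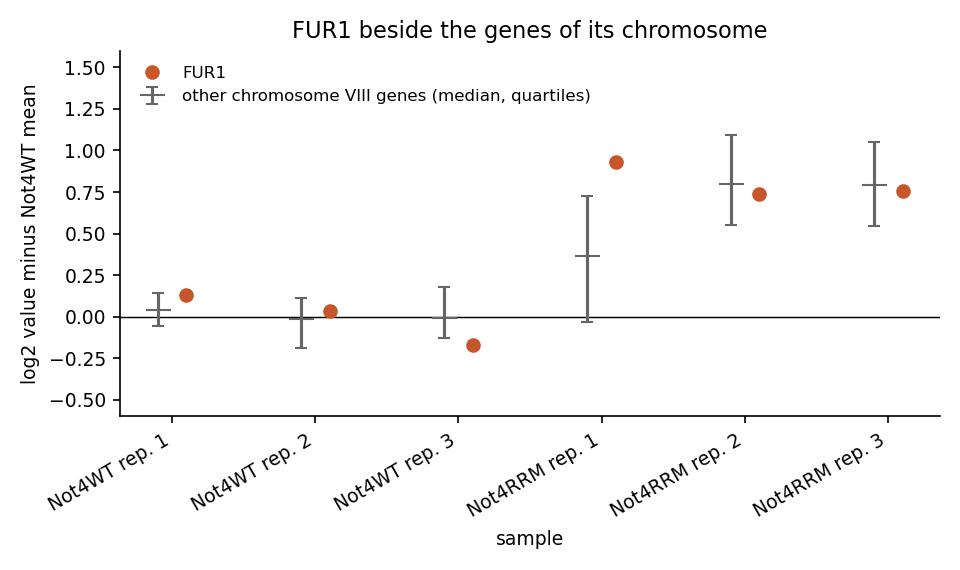
Log2 value minus the Not4WT mean (vertical axis) in the 6 samples for *FUR1* (points) and for the other 274 tested genes of chromosome VIII (bar at the median, whiskers to the quartiles). *FUR1* is at 0.93, 0.74 and 0.75 in Not4RRM, beside medians of 0.37, 0.80 and 0.79.

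**Figure D4:**
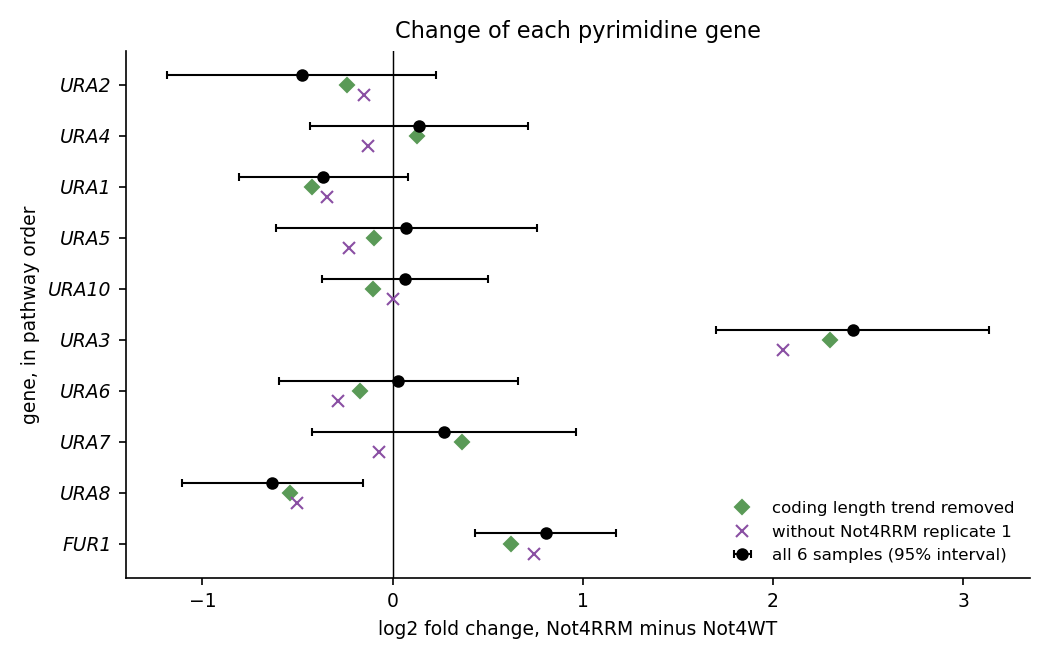
Log2 fold change of each gene (horizontal axis), Not4RRM minus Not4WT, with the 95% interval from limma (circles), with the trend with coding length removed (diamonds) and without Not4RRM replicate 1 (crosses). The 3 estimates stay on one side of 0 for *URA2*, *URA1*, *URA3*, *URA8* and *FUR1* only.

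The 10 genes differ in length, from 615 bp for *URA6* to 6645 bp for *URA2*, and longer genes had lower fold changes in these data (Spearman rho -0.41 across 5801 genes, which are not independent replicates; -0.18 without Not4RRM replicate 1). With the trend with log2 coding length removed from each sample by loess, *URA2*, the longest of the 10, went from -0.48 to -0.24. The short genes *URA5*, *URA10* and *URA6* went to -0.10, -0.10 and -0.17, and *FUR1* to 0.62. *URA8* stayed at -0.54 and *URA1* at -0.42. In that fit 2 of the 10 genes were higher and 2 lower at an unadjusted p under 0.05 in limma, beside 10.4% of all genes higher and 6.08% lower. *URA3*, at 2.30, was 1 of 6 genes that passed the threshold there (0.103% of the genes tested, adjusted p = 0.0324 from limma). That call was lost with the replicate number as a block in the same fit (adjusted p = 0.0851 from limma) and with chromosome VIII centred as well (adjusted p = 0.0618 from limma).

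**Figure D5:**
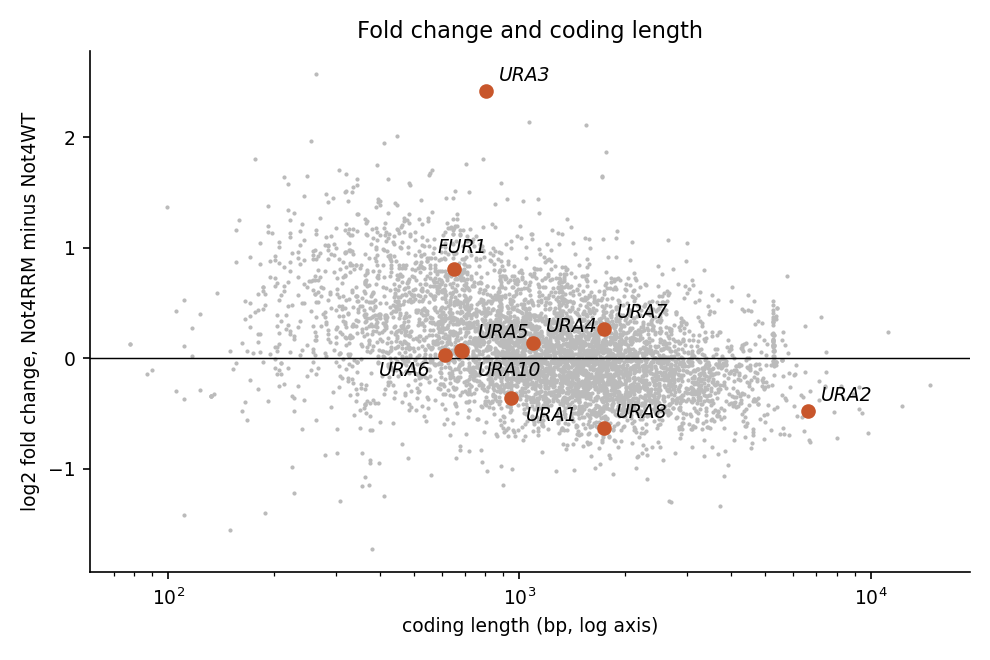
Log2 fold change, Not4RRM minus Not4WT (vertical axis), against coding length in bp (horizontal log axis) for the tested genes (grey) and the 10 pyrimidine genes (orange). *URA3* at 2.42 lies above nearly all genes of any length, while *URA2* at 6645 bp is at -0.48.

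The genes also differed widely in level. Per kb of coding length, the mean scaled count in Not4WT was highest for *URA1*, at 4633 ± 859 (SD, n = 3), followed by *URA2* (3622), *URA8* (3019) and *URA5* (2897), and each of these overlapped the next in its samples. *URA3* (1398), *URA6* (1068) and *FUR1* (824) followed without overlap. *URA7* (589) and *URA4* (508) overlapped each other, and *URA10* was lowest, at 228 ± 29.3 (SD, n = 3). In Not4RRM *URA3* moved to the top, at 7358 ± 3607 (SD, n = 3), without overlap with *URA1* (3269), *URA10* was again lowest (218), and *FUR1* (1320) was above *URA6* (1056) with overlap. In Not4WT, 78.8% of the tested genes had a lower level per kb than *URA3*, and in Not4RRM 94.3% had.

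Another 25 genes, of pyrimidine uptake, salvage, interconversion and precursor supply and *PPR1*, were listed for comparison. At an unadjusted p under 0.05 in limma, 4 of the 25 were higher and 0 lower, beside the 9.84% and 6.12% of all tested genes, and 0 passed the threshold with adjustment. Their median log2 fold change was 0.15, and 0.07 with the length trend removed. Without Not4RRM replicate 1 the median was -0.05, and 3 of the 25 were higher and 4 lower at that level (*CDC21* and *PRS5* among them), beside 15.4% and 13.8% of all tested genes. *PRS3* alone of the 25 then passed the threshold (adjusted p = 0.0351 from limma), beside 3.92% of all tested genes as higher and 2.26% as lower. The 4 in all 6 samples were *CDC8* (thymidylate kinase), *FCY1* (cytosine deaminase), *DCD1* (dCMP deaminase) and *PRS3* (PRPP synthetase), and the last pair lie on chromosome VIII like *FUR1*. *PRS3* had scaled counts of 2568, 2140 and 1918 in Not4WT and 3874, 3538 and 3393 in Not4RRM, without overlap, and was 0.84 higher on the log2 scale (limma, adjusted p = 0.131). *DCD1* had 339, 351 and 423 in Not4WT and 735, 460 and 507 in Not4RRM, with 0.71 (adjusted p = 0.214 from limma). *FCY1* was at 0.68 with all samples, and at 0.43 (unadjusted p = 0.127 from limma) without Not4RRM replicate 1. The fold changes of *PRS3* and *DCD1* lie between the quartiles of the chromosome VIII genes other than *FUR1* (0.40 and 0.88, median 0.65).

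Of the 9 uptake and salvage genes besides *FUR1*, the log2 fold changes ran from -0.32 for *FCY22*, a putative purine-cytosine permease, to 0.68 for *FCY1*, with a median of -0.01 (-0.10 without Not4RRM replicate 1). The 8 genes of nucleotide interconversion had a median of 0.29 (0.24 without that sample) and ran from -0.25 for *CDC21*, thymidylate synthase, to 1.18 for *CDC8*. *CDC8* had scaled counts of 115, 90 and 199 in Not4WT and 158, 304 and 388 in Not4RRM, so that its groups overlapped. Without Not4RRM replicate 1 *CDC8* was at 1.56 (adjusted p = 0.0583 from limma). The 7 precursor genes ran from -0.30 for *PRS5* to 0.84 for *PRS3*, with a median of -0.05 (-0.21 without Not4RRM replicate 1).

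The first cutoffs of the study were also run, with each gene's scaled counts compared by an unequal-variance test at an unadjusted p under 0.05 and at least 1.5-fold. The study then adjusted the p-values of the resulting list by the Benjamini-Hochberg method. That step cannot remove a gene from a list already cut at 0.05 (355 of 355 remained). When the adjustment was made over all 5913 genes, 0 passed. By the unadjusted cutoffs *URA8* passed as lower and *FUR1* as higher, and 2.2% of the 5913 genes passed as higher and 3.81% as lower. *URA3*, with a ratio of means of 5.26, did not pass, its 3 Not4RRM values being spread from 3990 to 9251.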

How the data were processed

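Poly(A) RNA of 3 Not4WT and 3 Not4RRM cultures was sequenced on an Ion Torrent Proton. The authors trimmed the reads, aligned them with STAR to the S288C transcriptome (R64 in the submitters' processing notes), counted reads per transcript and scaled every sample to the lowest coverage. The deposited scores are these scaled counts, rounded, with totals that differ by 66 at most, and were therefore not treated as raw counts. The aligner version is not given in the sources used here. Labels and paper name different library kits.

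One row without a gene name was left out. Of 5913 genes, 5907 matched R64. The 5805 genes tested reached 10 scaled counts in 3 or more samples and 15 over all samples. Samples were scaled by TMM (30% and 5% trimming), log2(value + 1) was taken, and groups were compared with limma 3.58.1 in R 4.3.3, with a prior variance that follows the level. Since the values are scores, no count model was used. Code was tested on simulated data. Loess used a span of 0.5. The labels do not say whether cultures were independent beyond being separate samples, so p-values measure the spread between these samples. No samples held identical values: at most 0.844% of tested genes had the same value in a pair. A test against counting noise was not made, since depth before scaling is unknown. The genes named are the 10 members, strain checks, *PPR1*, listed genes at an unadjusted p under 0.05 or at the ends of their list, and the 2 tested genes on each side of *FUR1*. Members and lists were chosen with earlier results of these data known.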

Additional observations from a re-analysis of the deposited data

How the results depend on the processing

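Over 17 alternatives and 2 more chosen after seeing the data (the length trend removed without Not4RRM replicate 1, and with chromosome VIII centred), *URA3* ranged from 1.99 to 2.63 in log2 fold change, *FUR1* from 0.00 to 0.85, *URA8* from -0.76 to -0.48, *URA1* from -0.51 to -0.25 and *URA2* from -0.65 to -0.15, without a change of sign. The lowest *FUR1* value is that with chromosome VIII centred and the length trend removed. Genes past the threshold numbered 355 by the study's cutoffs before adjustment, 6 with the length trend removed, 420 with this and without Not4RRM replicate 1, 1 with chromosome VIII centred and the length trend removed, and 0 to 358 with 1 sample left out, all 358 arising without Not4RRM replicate 1. The other alternatives gave 0. Adjusting the p-values of the study's test, chosen after seeing the data, gave 355 over its own list and 0 over all genes. The first of these counts is fixed by the cut at 0.05. Genes at an unadjusted p under 0.05 numbered 499 to 1693 with 1 sample left out, lowest without Not4WT replicate 2, where *URA8* no longer was among them, and highest without Not4RRM replicate 1. Of the 10 genes, *URA3* and *FUR1* passed the threshold without Not4RRM replicate 1, *URA8* and *FUR1* by the study's cutoffs, and *URA3* alone with the length trend removed, with or without that sample. With equal totals *URA5*, *URA10* and *URA6* were at -0.052, -0.056 and -0.092, and by the study's cutoffs *URA10* and *URA6* were at -0.060 and -0.016. With the length trend removed (also with the replicate block or chromosome VIII centred) they were at -0.10, -0.10 and -0.17, and *FUR1* minus its chromosome at -0.0081 (length trend removed alone). With this and without Not4RRM replicate 1, *URA4* was at -0.11, *URA5* at -0.36, *URA10* at -0.13, *URA6* at -0.45, *URA7* at -0.042, *URA5* minus *URA10* at -0.23, *URA3* minus *NOT4* at -0.0068 and *FUR1* minus its chromosome at -0.15. With 1 sample left out, *URA4* ranged from -0.13 to 0.28, *URA5* from -0.23 to 0.29, *URA10* from -0.069 to 0.13, *URA6* from -0.29 to 0.23, *URA7* from -0.069 to 0.48, *URA5* minus *URA10* from -0.23 to 0.16 and *FUR1* minus its chromosome from -0.043 to 0.27. The causes were not tested. Equal totals moved the median of all genes from 0.05 to -0.07, and the share of higher genes among those at an unadjusted p under 0.05 from 61.7% to 37.4%.

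The replicate numbers did not pair the samples (correlations of deviations 0.07, -0.15 and 0.38 for numbers 1, 2 and 3, and not every sample correlated best with its own number). With the replicate block, 902 genes had an unadjusted p under 0.05 against 926, 0 passed the threshold and *URA3* was at 2.42. Depth before scaling is unknown, so counting error could not be separated from the spread between cultures.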
